A study of Arabidopsis thaliana with 14 samples.

Results

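Arabinogalactan proteins (AGPs) and their fasciclin-like relatives (FLAs) were described as a gene family in RNA-Seq of dark-grown Arabidopsis thaliana seedlings. A gene was taken when its symbol was AGP or FLA followed by a number, or when its description held the word arabinogalactan. This gave 58 of the 24350 genes in the deposited tables, of which 49 matched by symbol and 9 by description only. The rule used names and descriptions and no measured value, although the family itself was picked with earlier results of these data known.

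The study asked how hydrogen peroxide (H2O2) acts on gene expression under BZR1, a transcription factor of the brassinosteroid pathway. The 5 groups were bzr1-1D with DPI and H2O2, bzr1-1D with DPI, bzr1-1D mock, Col-0 with DPI and Col-0 mock, and the labels list 2 samples of the first and 3 of each other group. bzr1-1D is a dominant allele that keeps BZR1 active when brassinosteroid is low, and Col-0 is the wild type. All groups, the mock groups included, grew for 6 days in the dark on medium with 2 µM propiconazole (PPZ), an inhibitor of brassinosteroid synthesis. The DPI groups also received 1 µM DPI, which blocks NADPH oxidases, and 1 of them 0.3 mM H2O2 as well. Col-0 with both DPI and H2O2 was not analysed here, so H2O2 was compared within bzr1-1D alone. The labels name the tissue as hypocotyl.

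AGPs are cell surface proteoglycans. Their short protein backbones are rich in proline, alanine, serine and threonine, the prolines are hydroxylated and loaded with branched arabinogalactan chains, and many are tethered to the plasma membrane by a lipid anchor. AG peptides are the shortest members, Lys-rich AGPs carry a basic stretch, chimeric AGPs join an AGP stretch to another domain, and FLAs carry fasciclin domains, which are known for adhesion between cells or between cell and wall. The family has been studied for its roles in cell expansion, wall strength, root growth and pollen.

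By class, the 58 genes were 12 AG peptides, 13 classical AGPs, 3 Lys-rich AGPs, 2 chimeric AGPs, 20 FLAs and 8 genes with neither symbol that their description brought in. The ninth gene matched by description is FLA4, listed as SOS5 and counted with the FLAs. FLAs are sorted by sequence into groups A to D, with 6, 4, 7 and 3 genes here. Codons for proline, alanine, serine and threonine made up a median of 52.2% of the coding sequence in the 30 genes with an AGP symbol, 34.3% in the 20 FLAs and 25.1% over all 24119 coding genes examined. The coding sequences of 5 AG peptides are given below because AGP13, AGP14 and AGP22 were lower with DPI in both genotypes, and because AGP12, AGP13, AGP14 and AGP21 are near relatives. They were read from the RefSeq TAIR10.1 genome from start to stop codon, and capitals mark codons of the pairs Ala-Pro, Ser-Pro, Thr-Pro and Pro-Ala, at which AGPs are typically glycosylated. AGP12 lies at chr3:4409087-4409269 on the plus strand, AGP13 at chr4:13317235-13317414 on the minus strand, AGP14 at chr5:22893243-22893425 on the plus strand and AGP21 at chr1:20648634-20648810 on the minus strand, each in 1 coding exon. AGP22 spans chr5:21603715-21604007 on the plus strand in 2 coding exons, which are joined here.
AGP12: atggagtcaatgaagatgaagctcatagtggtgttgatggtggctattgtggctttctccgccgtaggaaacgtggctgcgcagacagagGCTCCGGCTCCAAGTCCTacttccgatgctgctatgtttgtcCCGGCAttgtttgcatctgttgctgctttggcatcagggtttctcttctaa
AGP13: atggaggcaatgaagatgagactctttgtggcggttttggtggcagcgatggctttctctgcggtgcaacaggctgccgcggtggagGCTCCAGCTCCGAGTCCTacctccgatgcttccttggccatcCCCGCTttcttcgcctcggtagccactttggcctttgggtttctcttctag
AGP14: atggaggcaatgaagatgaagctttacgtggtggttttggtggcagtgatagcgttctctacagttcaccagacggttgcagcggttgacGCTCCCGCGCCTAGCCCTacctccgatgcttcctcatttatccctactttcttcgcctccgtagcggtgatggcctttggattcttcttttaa
AGP21: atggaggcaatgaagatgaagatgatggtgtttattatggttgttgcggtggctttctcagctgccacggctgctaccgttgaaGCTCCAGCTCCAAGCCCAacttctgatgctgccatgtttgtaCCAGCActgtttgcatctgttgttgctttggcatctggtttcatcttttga
AGP22: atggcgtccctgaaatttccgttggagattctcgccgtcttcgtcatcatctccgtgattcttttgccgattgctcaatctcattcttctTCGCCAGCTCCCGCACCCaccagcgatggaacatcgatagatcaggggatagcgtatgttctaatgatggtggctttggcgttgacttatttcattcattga
In each of the 5 the capitals form 1 run near the middle, and AGP12, AGP13 and AGP21 have a further Pro-Ala pair behind it. AGP13 and AGP14 shared 77.1% of bases in a global alignment, AGP12 and AGP21 74.3%. Reads of closer pairs, such as AGP16 and AGP20 with 84.4% and FLA8 and FLA10 with 81.1%, could have been split between the copies, and how such reads were assigned was not tested.

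Each value below is the authors' mean FPKM (fragments scaled by gene length and library size) of a group. No single-sample values were analysed here. No value therefore carries an SD, no difference has a replicate check or a test, and whether a difference exceeds the spread between replicates cannot be said. Steps in the lowest values correspond to an estimated 8260000 to 9380000 fragments per library, and the decimals of the bzr1-1D mock means are those of averages over 2 libraries, not 3. Intervals given below are 95% intervals from read numbers estimated in this way and cover counting error only. A gene was compared when it reached 1 FPKM in at least 1 of the 2 groups, and it is called higher or lower when the ratio of (FPKM + 1) passed 1.5-fold, the fold the study used. Of the 58 members, 50 reached 1 FPKM in some group, 39 reached 5 FPKM and 27 reached 50 FPKM. Markers of the root endodermis, CASP1, ESB1 and MYB36, were present in tissue labelled hypocotyl, with a summed level of 152 to 594 FPKM over the groups, whereas the root tip markers PLT1, PLT2 and WOX5 were each under 1 FPKM in every group. In whole tissue, fewer cells of a type and less RNA per cell cannot be told apart.

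The family was most abundant in bzr1-1D mock. The 58 genes summed to 8662 FPKM in bzr1-1D with DPI and H2O2, 7048 FPKM in bzr1-1D with DPI, 13655 FPKM in bzr1-1D mock, 5234 FPKM in Col-0 with DPI and 4731 FPKM in Col-0 mock. As a share of the summed FPKM of all genes these were 1.23%, 0.993%, 1.96%, 0.716% and 0.678%. Of the 39 members that reached 5 FPKM, 27 were highest in bzr1-1D mock and 18 were lowest in Col-0 mock. A member could reach 5 FPKM through the group where it was high. The same counts were not made over all genes, so these have no background to be read against. AGP4, FLA9, AGP9 and AGP7 were the 4 most abundant members in bzr1-1D mock. They made up 54.1% of the family's sum there, against 36.4% in Col-0 mock. Because they were chosen by their level in bzr1-1D mock, a larger share there is in part built in.

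**Figure D1:**
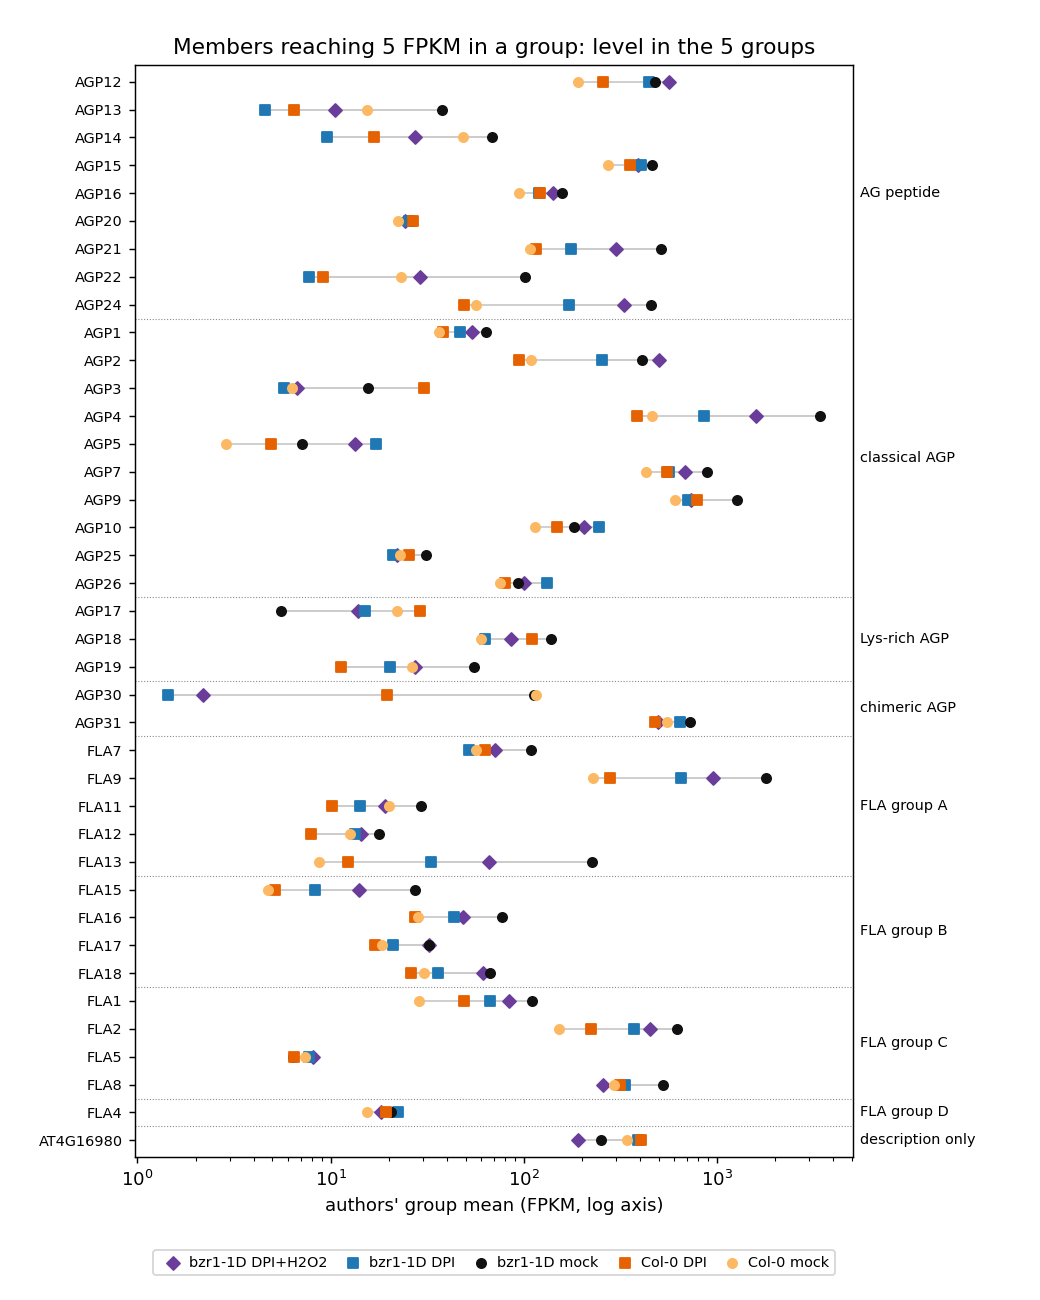
Group means in FPKM on a log axis for the 39 members that reached 5 FPKM in some group, 1 row a gene and 1 symbol a group, with dotted lines between classes. bzr1-1D mock (black circles) stands at the right end of 27 of the 39 rows, a count not made over all genes. AGP30 spans the widest range.

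The comparison of bzr1-1D mock with Col-0 mock asks what active BZR1 changes when brassinosteroid synthesis is blocked. Of 47 members compared, 29 were higher in bzr1-1D, 2 were lower and 16 were within 1.5-fold. Over all genes compared, 22.1% were higher and 13% were lower, against 61.7% and 4.26% of the members. The median log2 ratio was 0.78 for the members and 0.13 for all genes. All classes but the chimeric AGPs and FLA group D held members that were higher. Markers of particular cell types moved with genotype as well. All 3 endodermis markers were higher, summing to 594 FPKM in bzr1-1D mock, against 289.7 FPKM in Col-0 mock, and 4 of 7 xylem markers were higher, summing to 214 FPKM in bzr1-1D mock, against 126 FPKM in Col-0 mock. Of the 4 photosynthetic markers 3 were lower, with a sum of 4596 FPKM in bzr1-1D mock, against 9403 FPKM in Col-0 mock, most of it from RBCS1A, at 3725 FPKM in bzr1-1D mock, against 8658 FPKM in Col-0 mock. The fourth, CAB3, was higher, with 596 FPKM in bzr1-1D mock, against 125 FPKM in Col-0 mock (log2 ratio 2.24). The part of all these markers in the members' levels was not tested.

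AGP4, a classical AGP known as JAGGER for its part in keeping extra pollen tubes out of the ovule, was the most abundant member in all 3 bzr1-1D groups. It had 3423 FPKM in bzr1-1D mock, rank 15 of all genes there, against 459 FPKM in Col-0 mock, rank 172. The log2 ratio was 2.89. FLA9 stood at 1793 FPKM in bzr1-1D mock, against 227 FPKM in Col-0 mock (log2 ratio 2.98). The ratios of the means were 7.45 for AGP4 and 7.90 for FLA9.

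FLA13 had the highest ratio of the family. Its mean was 225.5 FPKM in bzr1-1D mock, against 8.72 FPKM in Col-0 mock, a 25.9-fold ratio. Its log2 ratio without a pseudocount was 4.69, with a counting interval of 4.52 to 4.87. FLA9 and FLA13 shared 76.6% of their coding bases, the fifth closest pair of the family.

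Among the AG peptides 8 of 10 were higher in bzr1-1D mock and none was lower. The 8 include AGP41, which was scarce, with 1.675 FPKM in bzr1-1D mock, against 0.673 FPKM in Col-0 mock. These AGP41 means rest on an estimated 23 and 13 reads. AGP24 had 458 FPKM in bzr1-1D mock, against 56.5 FPKM in Col-0 mock (log2 ratio 3.00). AGP21, which has been linked to root hair cell fate, had 513 FPKM in bzr1-1D mock, against 108 FPKM in Col-0 mock (log2 ratio 2.24). AGP22 had 101 FPKM in bzr1-1D mock, against 23.0 FPKM in Col-0 mock (log2 ratio 2.09). The 2 AG peptides within 1.5-fold were AGP14, with a log2 ratio of 0.48, and AGP20, with 0.23.

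The 4 FLAs of group B, which carry a pair of fasciclin domains, were all higher in bzr1-1D mock. Their log2 ratios were 2.31 for FLA15, 1.41 for FLA16, 1.11 for FLA18 and 0.78 for FLA17. In group C, FLA2 had 619.5 FPKM in bzr1-1D mock, against 151 FPKM in Col-0 mock (log2 ratio 2.03). FLA1, which has been linked to shoot regeneration and lateral root formation, followed with 110.5 FPKM in bzr1-1D mock, against 28.8 FPKM in Col-0 mock (log2 ratio 1.90). FLA8, the closest relative of FLA10, had a log2 ratio of 0.83, while FLA10 had -0.47, with 2.98 FPKM in bzr1-1D mock, against 4.51 FPKM in Col-0 mock.

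The 2 members lower in bzr1-1D mock were AGP17 and AGP11. AGP17, a Lys-rich AGP whose loss makes roots resistant to Agrobacterium transformation, had 5.52 FPKM in bzr1-1D mock, against 22.1 FPKM in Col-0 mock (log2 ratio -1.82). The other Lys-rich AGPs were higher, with a log2 ratio of 1.19 for AGP18, which acts in the female gametophyte, and 1.03 for AGP19, which is needed for normal growth. AGP11, a pollen AGP, was scarce, with 0.395 FPKM in bzr1-1D mock, against 1.74 FPKM in Col-0 mock.

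With DPI in both genotypes the difference was smaller. Of 46 members compared, 17 were higher in bzr1-1D with DPI than in Col-0 with DPI, 6 were lower and 23 were within 1.5-fold. Over all genes 21.2% were higher and 7.4% were lower, with a median log2 ratio of 0.17, against a members' median of 0.26. After centring on the median gene 8 members were higher and 8 lower, beside 14% and 11.6% of all genes, so the excess of higher members in this comparison depended on the scaling. The members higher under both scalings were AGP12, AGP24, AGP2, AGP4, AGP5, AGP19, FLA9 and FLA13. Of the members higher on the deposited scale alone, AGP40 and AGP27 were near the lowest level compared. AGP40 had 1.02 FPKM in bzr1-1D with DPI, against 0.303 FPKM in Col-0 with DPI. AGP27 had 2.24 FPKM in bzr1-1D with DPI, against 1.06 FPKM in Col-0 with DPI.

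Members higher in bzr1-1D mock mostly had a smaller ratio with DPI. Of 27 such members that could be compared in both conditions, 25 had a smaller genotype ratio with DPI, 92.6%, and their median log2 ratio was 0.44 with DPI and 1.19 in mock. Of all genes chosen in the same way 73.4% had a smaller ratio, with medians of 0.69 with DPI and 0.89 in mock. Genes picked for a high ratio in one comparison tend to have a lower one in another, so the all-gene share is given beside that of the members. It is not a matched baseline, because the members started from a higher median ratio in mock.

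FLA13 had 33.0 FPKM in bzr1-1D with DPI, against 12.2 FPKM in Col-0 with DPI (log2 ratio 1.36, and 4.54 in mock). AGP4 had 859.7 FPKM in bzr1-1D with DPI, against 384 FPKM in Col-0 with DPI, and FLA9 had 649 FPKM in bzr1-1D with DPI, against 279 FPKM in Col-0 with DPI. The log2 ratios were 1.16 for AGP4 and 1.22 for FLA9. The log2 ratio of AGP21 was 0.59 with DPI, and that of AGP22 was -0.22, which is within 1.5-fold. AGP24 had 1.78 with DPI and 3.00 in mock. Smaller losses were those of AGP2, with 1.42 with DPI and 1.90 in mock, AGP12, with 0.79 with DPI and 1.33 in mock, and AGP19, with 0.79 with DPI and 1.03 in mock.

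AGP5 and AGP10 were the members higher in bzr1-1D mock whose ratio was not smaller with DPI. AGP5 had 17.2 FPKM in bzr1-1D with DPI, against 4.91 FPKM in Col-0 with DPI (log2 ratio 1.62, and 1.06 in mock). AGP10 had log2 ratios of 0.72 with DPI and 0.67 in mock.

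The 6 members lower in bzr1-1D with DPI were AGP30, AGP3, AGP17, AGP18, AGP14 and FLA6. FLA6 was scarce, with 0.133 FPKM in bzr1-1D with DPI, against 1.31 FPKM in Col-0 with DPI. These FLA6 means rest on an estimated 3 and 34 reads. AGP30 had 1.44 FPKM in bzr1-1D with DPI, against 19.6 FPKM in Col-0 with DPI (log2 ratio -3.08), although its genotype ratio in mock was -0.04. AGP3 had 5.74 FPKM in bzr1-1D with DPI, against 30.6 FPKM in Col-0 with DPI (log2 ratio -2.23), and was higher in bzr1-1D in mock with 1.18. AGP18 likewise was lower in bzr1-1D with DPI, at -0.81, and higher in mock. Whether these ratios differ between conditions beyond replicate error was not tested.

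**Figure D2:**
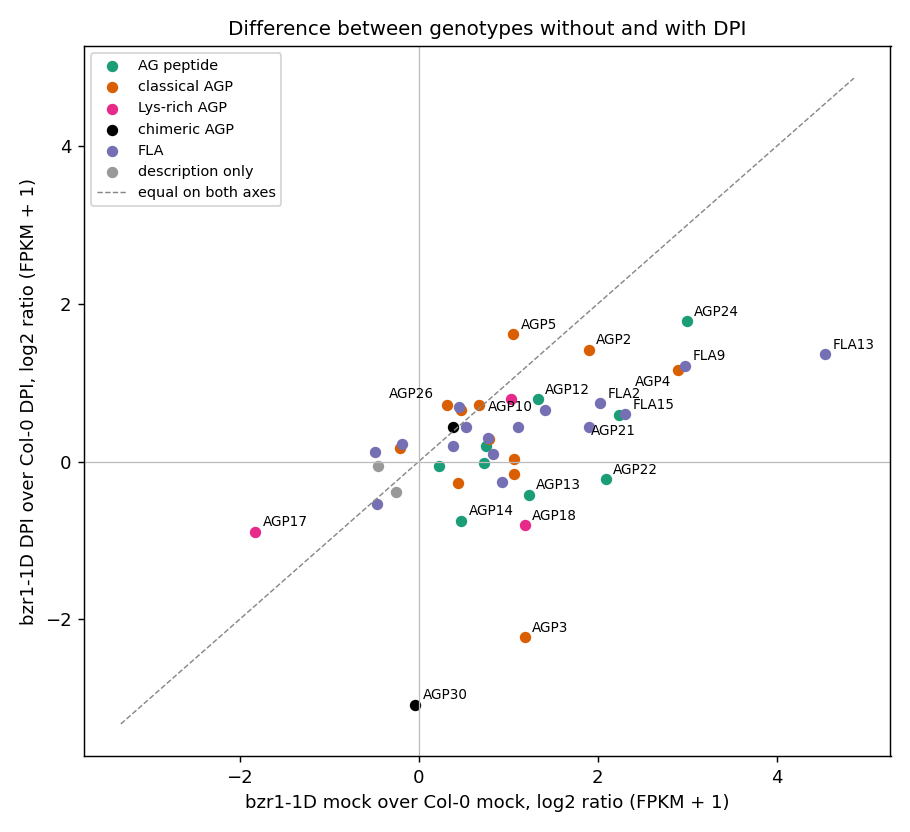
Log2 ratio of (FPKM + 1) of bzr1-1D over Col-0 without DPI (x axis) and with DPI (y axis), 1 point a member, coloured by class. Most points right of 0 lie below the dashed line of equal ratios, and AGP30 and AGP3 lie lowest, at -3.08 and -2.23 with DPI.

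In Col-0, DPI went with differences in both directions in the family. Of 46 members compared, 6 were higher with DPI than in mock, 7 were lower and 33 were within 1.5-fold. Over all genes 3.18% were higher and 17.4% were lower, against 13.04% and 15.2% of the members, and the median gene had a log2 ratio of -0.24, while the median member had 0.10. Centred on the median gene, 16 members were higher and 6 lower, beside 7.24% and 6.68% of all genes. Members were thus above the typical gene of Col-0 with DPI more often than below it, 34 of 46, although on the scale as deposited 33 of the 46 were within 1.5-fold. Of the 4 photosynthetic markers 3 were higher, with a sum of 14507 FPKM in Col-0 with DPI, against 9403 FPKM in Col-0 mock, and their part in the members' levels was not tested.

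In bzr1-1D, DPI went with lower levels of much of the family. The bzr1-1D mock mean used here also entered the comparison with Col-0 mock. A high value of it gives a higher ratio there and a lower ratio here, so these results are not independent. Of 47 members compared, 26 were lower with DPI than in mock, 5 were higher and 16 were within 1.5-fold. Over all genes 24.7% were lower and 13% were higher, against 55.3% and 10.6% of the members. The median log2 ratio was -0.65 for the members and -0.21 for all genes. Centred on the median gene, 20 members were lower and 7 higher, beside 15.1% and 19.1% of all genes. Lower members came from every class but FLA group D. Markers of particular cell types moved in this comparison too. All 4 photosynthetic markers were higher, summing to 10965 FPKM in bzr1-1D with DPI, against 4596 FPKM in bzr1-1D mock. All 3 endodermis markers were lower, summing to 334 FPKM in bzr1-1D with DPI, against 594 FPKM in bzr1-1D mock, and 4 of 5 root hair markers were lower. The part of these markers in the members' levels was not tested.

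All 4 FLAs of group B and 4 of the 5 FLAs of group A compared were lower in bzr1-1D with DPI than in bzr1-1D mock. FLA17 of group B, with a log2 ratio of -0.59, came within 1.5-fold after centring on the median gene. AGP4 had 859.7 FPKM in bzr1-1D with DPI, against 3423 FPKM in bzr1-1D mock (log2 ratio -1.99). FLA13 had 33.0 FPKM in bzr1-1D with DPI, against 225.5 FPKM in bzr1-1D mock (log2 ratio -2.74). In Col-0 the same ratios were -0.26 for AGP4 and 0.45 for FLA13, both within 1.5-fold.

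The 5 members higher with DPI in bzr1-1D were AGP17, AGP5, FLA3, AGP6 and the gene AT4G16980. AGP17 had 15.1 FPKM in bzr1-1D with DPI, against 5.52 FPKM in bzr1-1D mock (log2 ratio 1.31). In Col-0 its ratio was 0.37, with 28.9 FPKM in Col-0 with DPI, against 22.1 FPKM in Col-0 mock. AGP6 and FLA3, known from pollen, were scarce in every group.

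A small set was lower with DPI in both genotypes. AGP13, AGP14, AGP22, AGP19, AGP30 and FLA11 made up 6 of the 7 members lower in Col-0 with DPI, 85.7%, and 6 of the 24 lower in bzr1-1D that could be compared in Col-0, 25%. Over all genes the corresponding shares were 65.3% and 46.8%.

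AGP30, a chimeric AGP known from roots and from seed germination, had the widest range of the 39 members that reached 5 FPKM. It had 2.20 FPKM in bzr1-1D with DPI and H2O2, 1.44 FPKM in bzr1-1D with DPI, 112.6 FPKM in bzr1-1D mock, 19.6 FPKM in Col-0 with DPI and 115.6 FPKM in Col-0 mock. Both mock groups were alike, and both bzr1-1D groups with DPI were near the lowest level that was compared. DPI over mock gave a log2 ratio of -5.54 in bzr1-1D and -2.50 in Col-0. Without a pseudocount these were -6.29, counting interval -6.74 to -5.84, and -2.56, counting interval -2.68 to -2.43. The lowest of these means rests on an estimated 40 reads. The endodermis markers were lower with DPI in both genotypes as well, all 3 in bzr1-1D and 2 of 3 in Col-0, where they summed to 152 FPKM with DPI, against 289.7 FPKM in mock. Their median log2 ratios were -0.85 in bzr1-1D and -0.82 in Col-0. Between the genotypes these markers ran otherwise than AGP30. With DPI all 3 were higher in bzr1-1D than in Col-0, with a median log2 ratio of 1.09, where AGP30 had -3.08. In mock all 3 were higher in bzr1-1D, with a median of 1.39, where AGP30 had -0.04. The part of these markers in the levels of AGP30 and the AG peptides was not tested.

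The AG peptides AGP22, AGP14 and AGP13 shared this direction at smaller size. AGP22 had 7.74 FPKM in bzr1-1D with DPI, against 101 FPKM in bzr1-1D mock, while Col-0 had 9.18 FPKM with DPI, against 23.0 FPKM in Col-0 mock. AGP14, known for an effect on root hair length, had 9.63 FPKM in bzr1-1D with DPI, against 68.2 FPKM in bzr1-1D mock, while Col-0 had 16.8 FPKM with DPI, against 48.7 FPKM in Col-0 mock. AGP13 had 4.57 FPKM in bzr1-1D with DPI, against 37.55 FPKM in bzr1-1D mock, while Col-0 had 6.45 FPKM with DPI, against 15.4 FPKM in Col-0 mock. The levels with DPI were closer between the genotypes than the mock levels for AGP13 and AGP22, and not for AGP14. AGP12 and AGP21, whose coding sequences resemble those of AGP13 and AGP14, did not share it in Col-0, with log2 ratios of 0.44 and 0.10.

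AGP3, AGP18 and FLA1 were higher with DPI in Col-0 and lower with DPI in bzr1-1D. AGP3 had 5.74 FPKM in bzr1-1D with DPI, against 15.5 FPKM in bzr1-1D mock (log2 ratio -1.29), while Col-0 had 30.6 FPKM with DPI, against 6.28 FPKM in Col-0 mock (log2 ratio 2.12). AGP18 had ratios of -1.13 in bzr1-1D and 0.87 in Col-0, and FLA1 had -0.72 in bzr1-1D, which came within 1.5-fold after centring on the median gene, and 0.75 in Col-0. Of the root hair markers, PRP3, EXPA7 and EXPA18 ran as AGP3 did. PRP3 had 9.76 FPKM in bzr1-1D with DPI, against 29.1 FPKM in bzr1-1D mock, while Col-0 had 69.3 FPKM with DPI, against 16.4 FPKM in Col-0 mock. The 6 root hair markers summed to 12.3 FPKM in bzr1-1D with DPI, 36.0 FPKM in bzr1-1D mock, 78.7 FPKM in Col-0 with DPI and 20.3 FPKM in Col-0 mock, with 3 of 4 higher with DPI in Col-0 and 4 of 5 lower in bzr1-1D. Their part in the levels of AGP3 was not tested.

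FLA11 and FLA12, known from secondary walls of stems, were both lower with DPI in Col-0. FLA11 had 10.2 FPKM in Col-0 with DPI, against 20.1 FPKM in Col-0 mock (log2 ratio -0.92), and FLA12 had 7.93 FPKM in Col-0 with DPI, against 12.6 FPKM in Col-0 mock (log2 ratio -0.61). After centring on the median gene FLA12 came within 1.5-fold. In bzr1-1D the ratios were -1.01 for FLA11 and -0.38 for FLA12. All 7 xylem and secondary wall markers, among them CESA4, CESA7 and CESA8, were lower in Col-0 with DPI and 3 of 7 were lower in bzr1-1D with DPI. Their summed level was 139 FPKM in bzr1-1D with DPI, 214 FPKM in bzr1-1D mock, 65.7 FPKM in Col-0 with DPI, against 126 FPKM in Col-0 mock. The part of these markers' cells in the FLA11 and FLA12 levels was not tested.

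**Figure D3:**
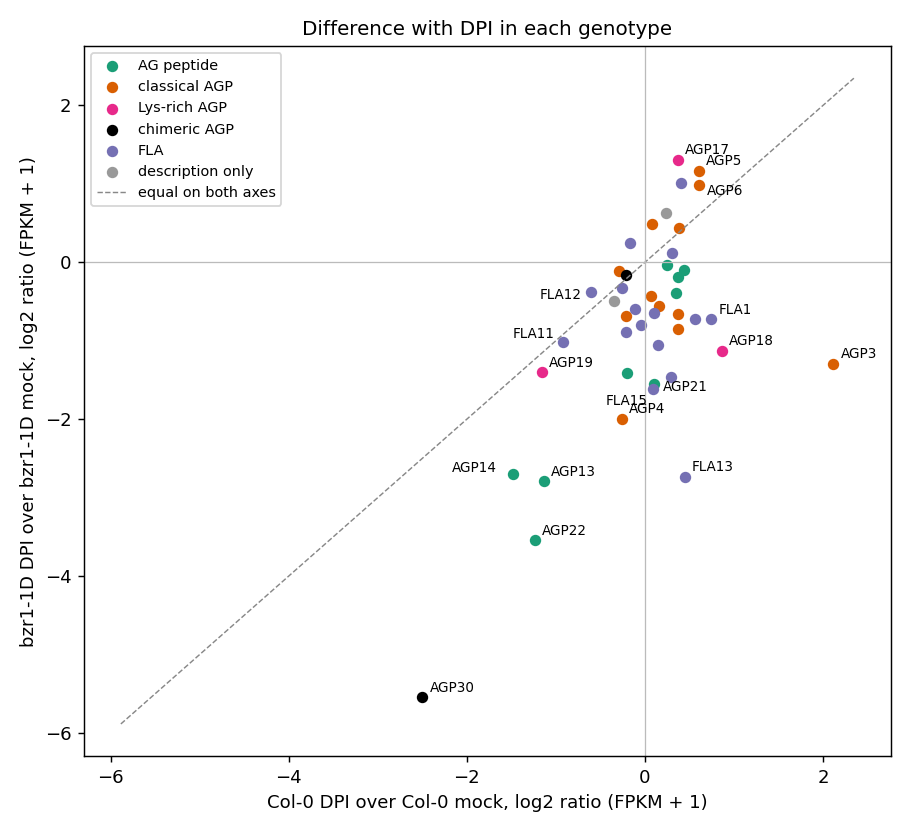
Log2 ratio of (FPKM + 1) of DPI over mock in Col-0 (x axis) and in bzr1-1D (y axis), 1 point a member, coloured by class. AGP30, AGP22, AGP13 and AGP14 lie at the lower left, lower in both genotypes, and AGP3 lies at the lower right, with 2.12 in Col-0 and -1.29 in bzr1-1D.

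**Figure D4:**
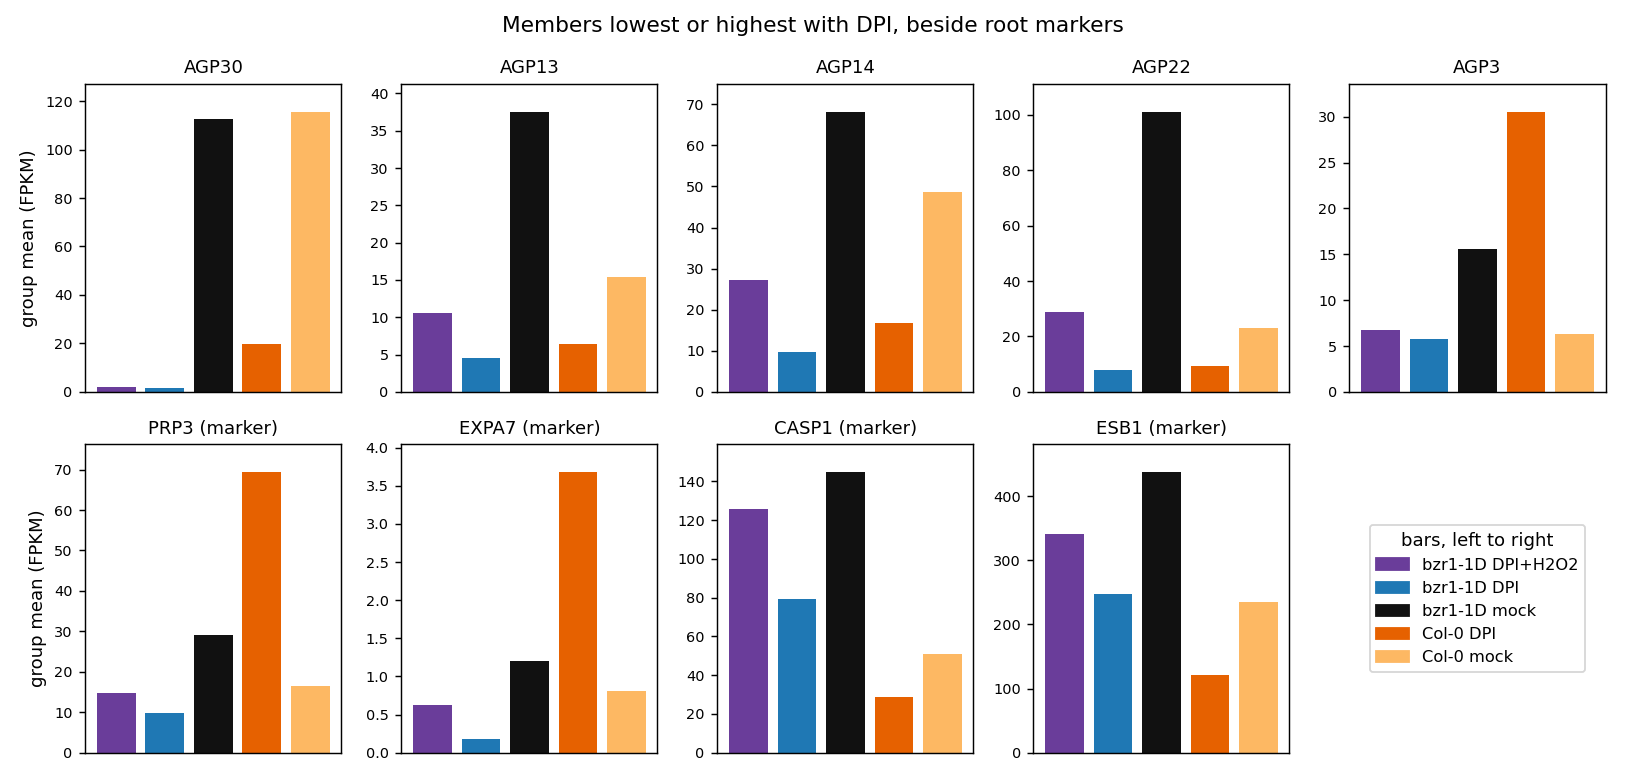
Group means in FPKM, 1 panel a gene, for AGP30, AGP13, AGP14, AGP22 and AGP3 (top) and for 2 root hair markers, PRP3 and EXPA7, and 2 endodermis markers, CASP1 and ESB1 (bottom), each on its own axis from 0. AGP30 is at 2.20 FPKM in bzr1-1D with DPI and H2O2 and 1.44 FPKM in bzr1-1D with DPI, and AGP3, PRP3 and EXPA7 are highest in Col-0 with DPI.

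The comparison of bzr1-1D with DPI and H2O2 against bzr1-1D with DPI asks which levels differ once peroxide is supplied. Of 47 members compared, 12 were higher in bzr1-1D with DPI and H2O2 than in bzr1-1D with DPI, 3 were lower and 32 were within 1.5-fold. Over all genes 20% were higher and 3.17% were lower, against 25.5% and 6.38% of the members, and the medians were 0.25 for all genes and 0.26 for the members. Centred on the median gene, 7 of the 47 members were higher and 9 lower, beside 7.55% and 9.02% of all genes. The median member thus ran with the median gene in this comparison. Under both scalings larger shares of the members than of all genes passed 1.5-fold in either direction, but on few genes. The lower members on the deposited scale included AGP6 and FLA3, which were scarce. With a minimum of 5 FPKM on that scale, 11 of 38 members were higher and 1 was lower. The all-gene shares were then 21.3% and 3.53%.

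The 7 members higher with H2O2 under both scalings were AGP13, AGP14, AGP22, AGP24, AGP2, AGP4 and FLA13. AGP22 had 28.9 FPKM in bzr1-1D with DPI and H2O2, against 7.74 FPKM in bzr1-1D with DPI (log2 ratio 1.78), the highest of the family. AGP14 had 27.3 FPKM in bzr1-1D with DPI and H2O2, against 9.63 FPKM in bzr1-1D with DPI (log2 ratio 1.41). AGP13 had 10.6 FPKM in bzr1-1D with DPI and H2O2, against 4.57 FPKM in bzr1-1D with DPI (log2 ratio 1.06). These 3 AG peptides were also among the members lower with DPI in both genotypes. The bzr1-1D DPI mean enters both the DPI and the H2O2 comparison in bzr1-1D. A low value of it gives a lower ratio with DPI and a higher ratio with H2O2, so these results are not independent. AGP30, lower with DPI in both genotypes as well, had 2.20 FPKM with H2O2, against 1.44 FPKM without it. Its log2 ratio of 0.39 was within 1.5-fold. Without a pseudocount it was 0.61, just past 1.5-fold, with a counting interval from just below 0 to 1.22.

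AGP4 had 1598 FPKM in bzr1-1D with DPI and H2O2, against 859.7 FPKM in bzr1-1D with DPI (log2 ratio 0.89). AGP2 had 500.0 FPKM in bzr1-1D with DPI and H2O2, against 255 FPKM in bzr1-1D with DPI (log2 ratio 0.97). Of the group B FLAs, FLA15, FLA17 and FLA18 were higher with H2O2 on the deposited scale, with log2 ratios of 0.68, 0.59 and 0.76, and were within 1.5-fold after centring. AT4G16980, annotated only by its description, was lower, with 190.4 FPKM in bzr1-1D with DPI and H2O2, against 389 FPKM in bzr1-1D with DPI (log2 ratio -1.03). The 4 photosynthetic markers summed to 5726 FPKM in bzr1-1D with DPI and H2O2, against 10965 FPKM in bzr1-1D with DPI, with 3 of 4 lower, and their part in the level of AT4G16980 was not tested.

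Set against bzr1-1D mock, bzr1-1D with DPI and H2O2 still had lower levels of many members. Of 46 compared, 19 were lower, 2 were higher and 25 were within 1.5-fold. Over all genes 8.71% were lower and 13.3% were higher, against 41.3% and 4.35% of the members, and the median log2 ratio was -0.46 for the members and 0.04 for all genes. The comparison with bzr1-1D mock shares the mock libraries with the DPI comparison and the H2O2 libraries with the one before it. The DPI and H2O2 comparisons also share the bzr1-1D DPI libraries, so the 3 are not independent.

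**Figure D5:**
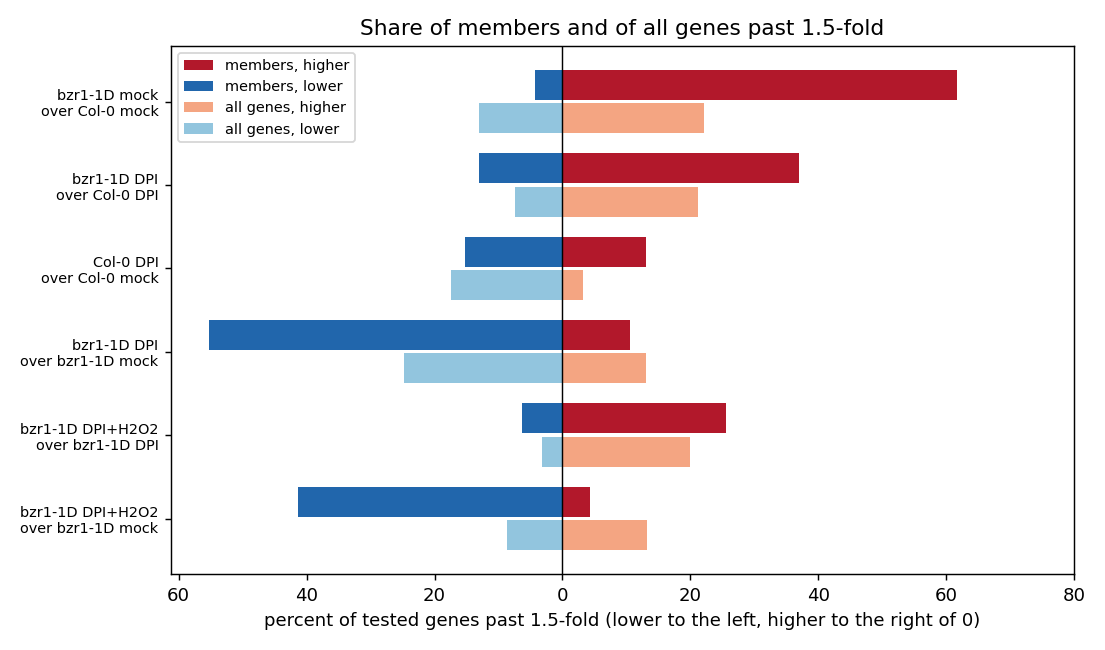
Percent of the genes compared that passed 1.5-fold in each of the 6 comparisons, higher to the right of 0 and lower to the left, for the members (dark bars) and for all genes (light bars), on the deposited scale. Members exceed all genes on the higher side in bzr1-1D mock over Col-0 mock, 61.7% and 22.1%, and on the lower side in bzr1-1D DPI over bzr1-1D mock, 55.3% and 24.7%. Both of these comparisons use the bzr1-1D mock mean.

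FLA13 had 66.3 FPKM in bzr1-1D with DPI and H2O2, against 225.5 FPKM in bzr1-1D mock (log2 ratio -1.75). FLA9 had 953 FPKM in bzr1-1D with DPI and H2O2, against 1793 FPKM in bzr1-1D mock (log2 ratio -0.91). AGP30 had the lowest ratio, -5.15. The 3 endodermis markers summed to 479 FPKM in bzr1-1D with DPI and H2O2, against 594 FPKM in bzr1-1D mock, with none of 3 past 1.5-fold. AGP2 and AGP12 were within 1.5-fold of their mock level, with log2 ratios of 0.28 and 0.24, and AGP5 and AGP17 were the 2 members higher than in mock, with 0.83 and 1.19.

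Several abundant members differed more modestly. AGP9, a classical AGP, had 735.5 FPKM in bzr1-1D with DPI and H2O2, 708 FPKM in bzr1-1D with DPI, 1272 FPKM in bzr1-1D mock, 789 FPKM in Col-0 with DPI and 607 FPKM in Col-0 mock. Only bzr1-1D mock stood apart, and the other 4 groups lay within 1.5-fold of each other. AGP7 had 682 FPKM in bzr1-1D with DPI and H2O2, 567 FPKM in bzr1-1D with DPI, 892 FPKM in bzr1-1D mock, 554 FPKM in Col-0 with DPI and 427 FPKM in Col-0 mock. Its 2 DPI groups were nearly equal, with a genotype log2 ratio of 0.03. FLA8 had 258 FPKM in bzr1-1D with DPI and H2O2, 336 FPKM in bzr1-1D with DPI, 525 FPKM in bzr1-1D mock, 315 FPKM in Col-0 with DPI and 294 FPKM in Col-0 mock, so that the group with H2O2 was its lowest.

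The AG peptides AGP12, AGP15 and AGP16 were high throughout and not called lower in any comparison. AGP12 had 566 FPKM in bzr1-1D with DPI and H2O2, 447 FPKM in bzr1-1D with DPI, 480.3 FPKM in bzr1-1D mock, 258 FPKM in Col-0 with DPI and 191 FPKM in Col-0 mock. The 3 bzr1-1D groups all exceeded both Col-0 groups. AGP15 lay between 272 and 460.4 FPKM and AGP16 between 94.7 and 158 FPKM, both lowest in Col-0 mock and highest in bzr1-1D mock. AGP10 and AGP26, classical AGPs, were instead highest in bzr1-1D with DPI, at 246 FPKM for AGP10 and 132 FPKM for AGP26, and lowest in Col-0 mock, at 114 FPKM for AGP10 and 75.3 FPKM for AGP26.

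Some members barely moved across the 5 groups. AGP20 had 26.7 FPKM in Col-0 with DPI, its highest group, against 22.3 FPKM in Col-0 mock, its lowest, a range of 1.20-fold. FLA5 spanned 1.27-fold, and FLA4, also called SOS5 and known for salt tolerance and root wall expansion, spanned 1.44-fold between 15.5 and 22.4 FPKM. AGP31, a chimeric AGP of vascular tissue and the second chimeric member beside AGP30, lay between 476 and 721 FPKM, a 1.51-fold range. AGP20 is the near copy of AGP16, which ranged 1.67-fold.

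The 8 members that stayed below 1 FPKM in every group were AGP23, FLA14, FLA20, FLA21 and the description-only genes AT1G30800, AT4G12950, AT4G29980 and AT5G16920. AGP23 and FLA14 were listed at 0.01 FPKM, the value that stands for 0 in these tables, in bzr1-1D with DPI and in Col-0 mock. The pollen genes AGP6, AGP11 and FLA3 were present at 0.27 to 3.15 FPKM over the groups.

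Genes for enzymes that build the AGP glycan were examined beside the family. In a list of 20 genes for AGP modification, 18 could be compared in each comparison. In bzr1-1D mock over Col-0 mock 1 was higher and 1 was lower, with a median log2 ratio of 0.06, beside 22.1% and 13% of all genes and a median of 0.13. With DPI in bzr1-1D 6 of 18 were lower, with a median of -0.38, beside 24.7% of all genes and a median of -0.21. With H2O2 added to DPI 4 of 18 were higher, with a median of 0.28, which is near the 20% and the median of 0.25 of all genes. FUT4 and FUT6, fucosyltransferases that act on AGPs, were lower with DPI in both genotypes. FUT6 had 1.17 FPKM in bzr1-1D with DPI, against 4.08 FPKM in bzr1-1D mock, while Col-0 had 1.83 FPKM with DPI, against 5.31 FPKM in Col-0 mock. P4H5, a prolyl hydroxylase that acts on wall proteins, had 21.4 FPKM in bzr1-1D with DPI and H2O2, 10.9 FPKM in bzr1-1D with DPI, and its level in bzr1-1D mock was 20.7 FPKM.

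The promoters were searched on both strands for CGTGTG and CGTGCG, the brassinosteroid response elements that BZR1 is known to bind, and for CACGTG, the G-box, which can overlap CGTGTG in a longer word. The window ran from 250 bases before to 50 after the RefSeq gene start. CGTGTG or CGTGCG was found in 2 of 58 member promoters, 3.45%, and in 8.49% of 24143 promoters of all genes. In the 1000 bases before the start the shares for either motif were 15.5% of members and 21.6% of all genes. CACGTG was found in 1 member promoter, that of AGP2, and in 8.31% of all. The AGP2 window, chr2:9538914-9539213 on the minus strand of TAIR10.1, is given because it is the only member window with this motif, which is in capitals.
AGP2 promoter: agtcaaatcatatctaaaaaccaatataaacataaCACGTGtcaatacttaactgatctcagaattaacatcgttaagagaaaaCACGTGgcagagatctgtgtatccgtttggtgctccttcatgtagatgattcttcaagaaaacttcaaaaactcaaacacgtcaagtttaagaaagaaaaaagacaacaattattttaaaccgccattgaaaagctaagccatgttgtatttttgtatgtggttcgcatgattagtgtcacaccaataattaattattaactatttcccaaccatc
AGP2 was higher in bzr1-1D mock than in Col-0 mock, with 411 FPKM and 109 FPKM, and the windows of AGP4, FLA9 and FLA13, whose log2 ratios were higher still, held none of the 3 motifs. In the 1000 bases before the start FLA13 held 1 CGTGTG, and AGP4 and FLA9 held none of the 3. A match or its absence in these windows says nothing of binding.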

How the data were processed

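RNA-Seq was made from 14 samples in 5 groups, assigned from their labels. The authors sequenced on the BGISEQ-500 platform and mapped the reads with HISAT and Bowtie2. The build is named TAIR10 in the submitters' processing notes. The deposited values used here are the authors' group means, whose unit was taken as FPKM because low values scale with gene length, and columns headed ERD hold bzr1-1D by their table names. Zeros were listed as 0.01. The tables also hold the authors' log2 ratios, directions and NOISeq probabilities, which were not used. The tables of selected genes and 1 incomplete table were left out.

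Log2 ratios of (FPKM + 1) were computed over all genes with Python 3.11.15, with a minimum of 1 FPKM in 1 of the 2 groups and a threshold of 1.5-fold. The calculation was tested on simulated data. Depth was estimated from the value of 1 read, assuming that FPKM steps reflect whole reads. Genes named were those at 50 FPKM in some group, the 4 highest and 4 lowest ratios per comparison, and a list of studied members. FLA15, FLA17, FLA6, FLA10, AGP6, AGP11, AGP20, AGP27, AGP40, AGP41 and the members below 1 FPKM were named after their values were seen. Members, classes and lists were chosen with earlier results of these data known. 1 marker of the lists is not reported here.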

Additional observations from a re-analysis of the deposited data

How the results depend on the processing

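At a 2-fold threshold fewer members passed: 9 in place of 23 for bzr1-1D DPI over Col-0 DPI, 6 in place of 13 for Col-0 DPI over Col-0 mock, 19 in place of 31 for bzr1-1D DPI over bzr1-1D mock, 4 in place of 15 for bzr1-1D DPI+H2O2 over bzr1-1D DPI and 10 in place of 21 for bzr1-1D DPI+H2O2 over bzr1-1D mock. In that order, 6 members of 46 were higher and 3 lower, then 1 and 5 of 46, 3 and 16 of 47. The last 2 comparisons had 3 and 1 of 47, and 1 and 9 of 46. All-gene shares at 2-fold, higher and lower, were 7.7% and 2.75%, 1.13% and 3.78%, and 5.27% and 9.39% for the first 3. For the last 2 they were 3.67% and 0.525%, and 4.57% and 2.95%. Centring on the median gene gave 22 members in place of 13 for Col-0 DPI over Col-0 mock, beside 7.24% of all genes higher and 6.68% lower. A pseudocount of 0.1 FPKM, none, no minimum and a minimum of 5 FPKM left each total of higher and lower members within 1.5 times its value. Counts in 1 direction moved by more: with a minimum of 5 FPKM, 3 in place of 6 higher for Col-0 DPI over Col-0 mock, 3 in place of 5 higher for bzr1-1D DPI over bzr1-1D mock, 1 in place of 3 lower for bzr1-1D DPI+H2O2 over bzr1-1D DPI and 1 in place of 2 lower for bzr1-1D mock over Col-0 mock. The all-gene shares in these directions were 3.15%, 14.2%, 3.53% and 14.1%, in the same order. Lower counts were 5 in place of 3 for bzr1-1D DPI+H2O2 over bzr1-1D DPI with either other pseudocount, and 4 in place of 2 for bzr1-1D mock over Col-0 mock with none. Of all genes 4.25% were lower in the former with 0.1 FPKM and 4.43% with none, and 15.9% in the latter. No named log2 ratio past 1.5-fold changed sign under these alternatives. Of 1283 values of named log2 ratios under the alternatives, 62 no longer passed the threshold, 47 of them at 2-fold, and 24 passed it newly. Leaving out single replicates was not run, since the columns carry group means. No paired analysis was possible because the columns carry group means and no replicate numbers. Low members are limited by depth: the AGP30 mean in bzr1-1D with DPI rests on an estimated 40 reads and that of AGP6 in bzr1-1D mock on 21.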
